A study of Homo sapiens with 4 samples.

Results

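The 4 HOX clusters are described here together with EVX1 and EVX2, the homeobox genes that adjoin HOXA and HOXD. The members were taken by name. They were 38 HOX genes and 2 EVX genes, 40 of the 19817 protein-coding genes placed in the RefSeq table. Peaks were read over each cluster and 200 kb of flank on either side. These windows held 56 of 34390 peaks in the list of the YTHDF1 knockdown cells and 39 of 32791 peaks in the list of the wild-type cells.

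The study profiled a ubiquitinated form of histone H2A (H2AK119ub) by chromatin immunoprecipitation sequencing in H1 cells, an established human embryonic stem cell line grown in mTeSR1. In the knockdown cells (line YTHDF1 KD H1) an shRNA targeted YTHDF1, a reader of methylated adenosine in RNA. The wild-type cells were untreated. The labels name neither the hairpin sequence nor a control hairpin. Each group had 1 H2AK119ub library and 1 input library, and the inputs were not analysed here. With a single library on each side there is no replicate error, so the values are set side by side with no test. A peak list cannot show how much YTHDF1 the cells had left. Depth is unknown, because the lists hold no read counts. Over the genome the knockdown peaks covered 168 Mb and the wild-type peaks 195 Mb, a difference of -13.7%.

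HOX genes encode homeodomain transcription factors that give cells their position along the body axis. Their order on the chromosome matches the order of the body regions they pattern, from the hindbrain to the limbs and the tail end. In embryonic stem cells the clusters are silent and are textbook targets of Polycomb repressive complexes. PRC1 places H2AK119ub, and PRC2 methylates histone H3.

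All 40 members lay wholly inside H2AK119ub peaks in the knockdown list and in the wild-type list. Of all protein-coding genes, 7.62% did so in the knockdown list, 9.54% in the wild-type list and 6.59% in both. A member's neighbours lay in the same peak, so the 40 genes stand for 6 knockdown and 5 wild-type peaks and not for 40 separate observations. These peaks of both lists all stood at the ceiling of the authors' score, 1000, which 1.87% of knockdown and 3.04% of wild-type peaks reached. The score therefore cannot rank the HOX domains against each other.

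Promoters at ends of HOXA, HOXB and HOXD are shown here, because they lie near domain borders and, for HOXB1, near a gap of the knockdown list. The promoter of HOXA2, at the other end of HOXA from EVX1, has 11 CG pairs and is not shown. For HOXC the only sequence in the table is the start shared by HOXC4 and HOXC5 inside the cluster. Each runs from 250 bases before to 50 bases after the annotated start in GRCh38.p14, which has the coordinates of hg38. Capitals mark each CG pair.
EVX1 (chr7:27242552-27242851, + strand): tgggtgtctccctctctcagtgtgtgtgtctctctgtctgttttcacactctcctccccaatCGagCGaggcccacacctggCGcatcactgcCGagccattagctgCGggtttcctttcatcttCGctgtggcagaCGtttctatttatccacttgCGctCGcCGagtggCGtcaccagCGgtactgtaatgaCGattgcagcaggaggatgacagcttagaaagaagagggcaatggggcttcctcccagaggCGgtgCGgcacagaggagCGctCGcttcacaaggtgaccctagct
HOXB1 (chr17:48530962-48531261, - strand): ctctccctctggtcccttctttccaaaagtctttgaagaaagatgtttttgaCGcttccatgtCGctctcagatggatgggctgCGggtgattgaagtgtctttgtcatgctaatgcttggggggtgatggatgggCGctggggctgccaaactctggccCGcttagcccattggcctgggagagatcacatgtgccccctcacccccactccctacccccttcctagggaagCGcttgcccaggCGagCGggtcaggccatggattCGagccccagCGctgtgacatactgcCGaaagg
HOXC4 and HOXC5 (chr12:54016638-54016937, + strand): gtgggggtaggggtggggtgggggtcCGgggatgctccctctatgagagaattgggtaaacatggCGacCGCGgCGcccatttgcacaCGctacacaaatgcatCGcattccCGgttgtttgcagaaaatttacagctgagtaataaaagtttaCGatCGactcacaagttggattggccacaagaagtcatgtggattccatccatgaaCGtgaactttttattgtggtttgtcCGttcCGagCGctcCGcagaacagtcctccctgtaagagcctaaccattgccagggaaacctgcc
EVX2 (chr2:176083913-176084212, - strand): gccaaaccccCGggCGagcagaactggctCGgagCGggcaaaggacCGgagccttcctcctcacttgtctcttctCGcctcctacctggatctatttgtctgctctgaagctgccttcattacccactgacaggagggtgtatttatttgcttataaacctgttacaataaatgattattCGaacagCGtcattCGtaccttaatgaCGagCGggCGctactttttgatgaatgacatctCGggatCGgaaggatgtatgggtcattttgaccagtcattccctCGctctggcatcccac
HOXD1 (chr2:176188418-176188717, + strand): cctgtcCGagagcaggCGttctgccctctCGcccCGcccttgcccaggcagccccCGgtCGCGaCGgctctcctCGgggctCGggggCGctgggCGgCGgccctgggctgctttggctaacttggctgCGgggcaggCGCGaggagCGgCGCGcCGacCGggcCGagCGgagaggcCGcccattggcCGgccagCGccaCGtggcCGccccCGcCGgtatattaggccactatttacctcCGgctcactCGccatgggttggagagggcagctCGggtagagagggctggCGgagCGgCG

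Promoter sequences were found for 22 of the 40 members, in 28 distinct windows. All 28 windows lay wholly inside a peak in both lists. This follows from the members lying wholly inside peaks, at least 5.093 kb from a border, and is not a separate result. Windows of neighbouring genes shared a peak. Among 34961 such windows of all RefSeq genes, 49.3% lay inside a knockdown peak and 49.7% inside a wild-type peak. The CG count of the HOX and EVX windows had a median of 21.5 (interquartile range 14.5 to 27, range 0 to 44). That of all windows had a median of 14 (interquartile range 4 to 28, range 0 to 77). The upper quartiles thus lay close together. CG reads the same on both strands. At least 11 CG pairs, the count of HOXB1 and a level chosen with the values known, were present in 24 of the 28 windows and in 54.8% of all windows. The sequences shown held 17 (EVX1), 11 (HOXB1), 15 (HOXC4 and HOXC5), 15 (EVX2) and 36 (HOXD1). HOXD4, a gene of the anterior part of its cluster, had 4 in its window, and 1 of the 7 listed HOXA3 windows had 0. Peaks thus covered CG-poor as well as CG-rich starts inside the clusters.

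**Figure D1:**
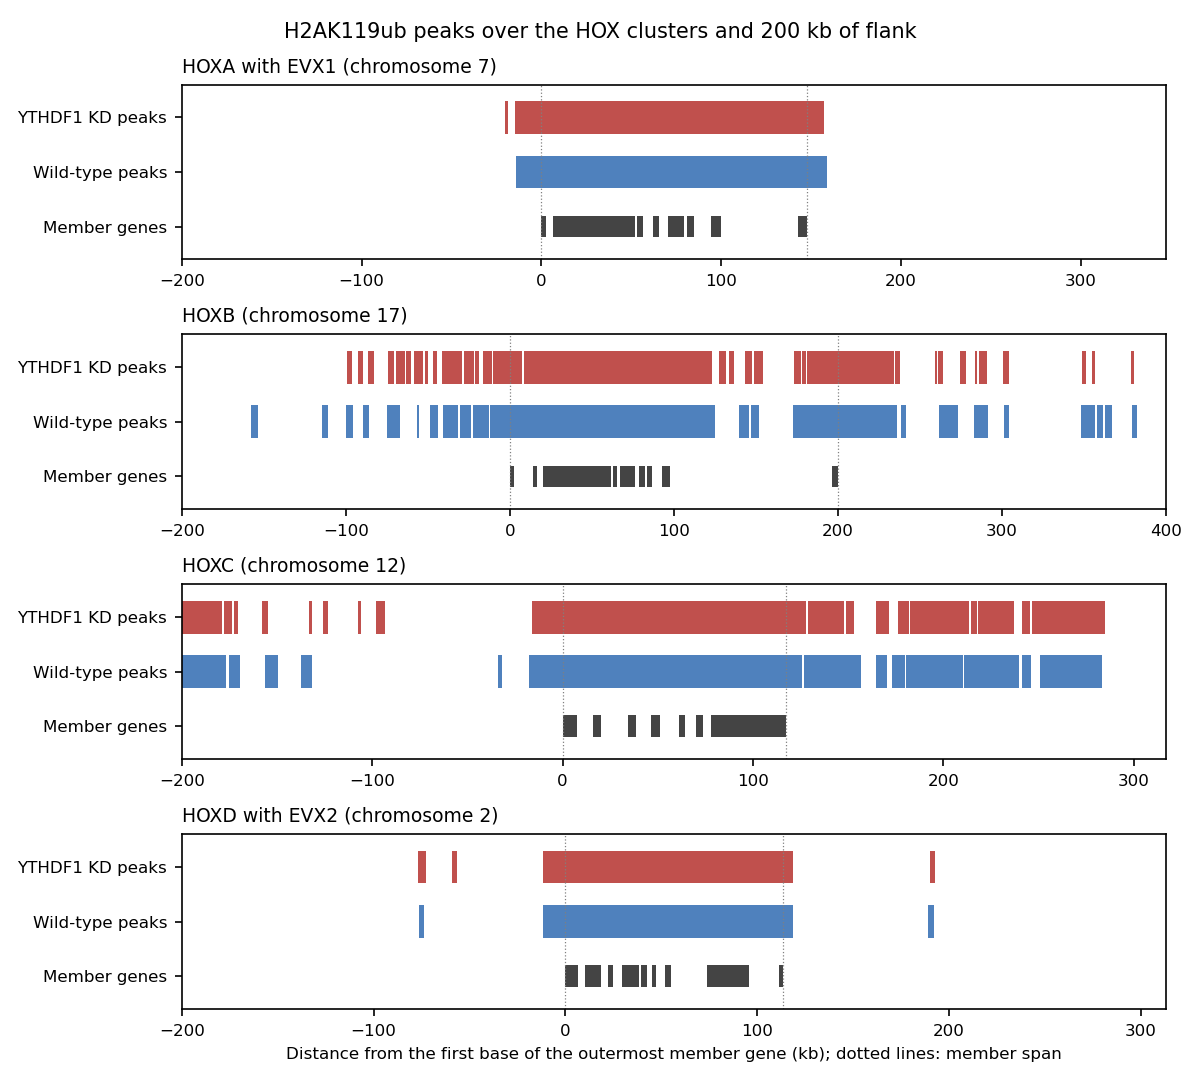
Peaks over the 4 clusters, with knockdown peaks in red above wild-type peaks in blue and member genes in grey below; the horizontal axis is the distance in kb from the first base of the outermost member. HOXA and HOXD stand as single blocks in nearly empty flanks, whereas HOXB and HOXC have many peaks beside them.

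The HOXA domain was a single peak in both lists. It spanned 171.8 kb in the knockdown list (chr7:27085801-27257600) and 173.2 kb in the wild-type list (chr7:27086001-27259200). It held HOXA2 to HOXA13 and EVX1 with no gap. HOXA2, which patterns the hindbrain and the second pharyngeal arch, lay 14.553 kb inside the left border in the knockdown list and 14.353 kb in the wild-type list. HOXA13, which acts in the digits and the genital tract, lay 57.509 kb inside the right border in the knockdown list and 59.109 kb in the wild-type list. Beyond HOXA13 both peaks ran on through the intergenic stretch up to EVX1. EVX1, which in mouse specifies spinal interneurons, lay 9.77 kb inside the right border in the knockdown list and 11.37 kb in the wild-type list. The knockdown border was thus 0.2 kb farther out on the left and 1.6 kb farther in on the right. The grid of the peak calls is 200 bp, so the left shift is a single step of that grid.

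HOXD had the same form. Its domain was 1 peak of 130.2 kb in the knockdown list (chr2:176065801-176196000) and 1 peak of 130.4 kb in the wild-type list (chr2:176065601-176196000). The left border lay 0.2 kb farther in and the right border at the same base. EVX2, active in the developing limb in mouse, lay 11.671 kb inside the left border in the knockdown list and 11.871 kb in the wild-type list. At the other end HOXD1 lay 5.093 kb inside the border in both lists, the shortest distance of any member to a border in either list. HOXD13, required for normal digits, and HOXD12 to HOXD8, HOXD4 and HOXD3 lay between them with no gap.

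The HOXC domain held all 9 members in 1 peak of 143.6 kb in the knockdown list (chr12:53923001-54066600) and 1 of 143.8 kb in the wild-type list (chr12:53921001-54064800). Its width was nearly equal. As called, the knockdown left border lay 2 kb farther in beside HOXC13, a gene of hair and nail formation. The right border lay 1.8 kb farther out beside HOXC4. On that side a gap of 1 kb led to another peak in both lists, so this border is a narrow split. The run of peaks with gaps of 1 kb ended at chr12:54092200 in the knockdown list and chr12:54095400 in the wild-type list. There the knockdown end lay farther in. HOXC13 lay 15.83 kb inside the left border in the knockdown list and 17.83 kb in the wild-type list. HOXC4 lay 10.57 kb inside the right border in the knockdown list and 8.77 kb in the wild-type list. The annotated spans of HOXC4, HOXC5 and HOXC6 begin at the same base, so these genes are not separate observations of the mark.

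HOXB differed from the other 3 clusters in having gaps inside its span. From HOXB1 to HOXB13 it measured 200.225 kb, of which 82.3% lay in knockdown peaks and 81.5% in wild-type peaks, while the spans of HOXA, HOXC and HOXD were covered to 100% in both lists. There were 8 gaps in the knockdown list and 3 in the wild-type list. Each of them except 1 lay between HOXB9 and HOXB13. The exception was a knockdown gap of 0.8 kb (chr17:48536201-48537000), which lay 5.19 kb from HOXB1 and 5.655 kb from HOXB2. It was as narrow as a gap can be in these lists, where the closest peaks lie 0.8 kb apart. No wild-type gap lay between any 2 members from HOXB1 to HOXB9.

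Because of that gap, HOXB1 to HOXB9 lay in 2 knockdown peaks of 17.8 and 114.8 kb and in 1 wild-type peak of 137 kb (chr17:48516601-48653600). HOXB1, which defines a segment of the hindbrain, was the sole member of the narrower knockdown peak. HOXB2, another hindbrain gene, HOXB4, known from blood stem cells, and the other genes up to HOXB9 lay in the wider one. Taken from the first to the last base, the knockdown domain measured 133.4 kb, with its left and right borders each 1.8 kb farther in. At the left border the next peak lay 0.8 kb away in both lists. Measured to the outermost knockdown peak that touched the wild-type peak, the left border lay 4.2 kb farther out. Both domains reached well past HOXB9, by 25.442 kb in the knockdown list and 27.242 kb in the wild-type list. MIR196A1, a microRNA gene, lies in that stretch.

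HOXB13, a gene of the prostate and the tail end of the axis, stood apart. It lies 98.404 kb from HOXB9 and had a domain of its own in both lists. That domain was 53.2 kb wide in the knockdown list (chr17:48709601-48762800) and 63.2 kb wide in the wild-type list (chr17:48701201-48764400). PRAC1 and PRAC2, small genes next to HOXB13 that are known from prostate, lay wholly inside it in both lists. Its left border lay 8.4 kb farther in in the knockdown list and its right border 1.6 kb farther in. The stretch on the left was not free of peaks. Knockdown peaks of 3.8 kb (score 9.48) and 2.2 kb (score 6.82) lay there, each separated from the next peak by 0.8 kb. On the right a knockdown peak of 3 kb (score 6.29) began 0.8 kb past the knockdown border. Measured to the outermost knockdown peaks that touched the wild-type peak, the left border lay 0.8 kb farther in and the right border 2.2 kb farther out. The gene itself lay 15.162 kb inside the left border in the knockdown list and 23.562 kb in the wild-type list. HOXB13 had the narrowest of the 5 domains and the only border that differed by more than 2 kb when a domain is measured from its first to its last peak with a member.

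Between the HOXB domain and the HOXB13 domain lay 57.8 kb in the knockdown list and 47.6 kb in the wild-type list. Knockdown peaks covered 40.1% of that stretch with 6 peaks, and wild-type peaks 22.3% with 2 peaks. The longest stretch with no peak measured 19 kb in the knockdown list and 21 kb in the wild-type list. Over the fixed interval from HOXB9 to HOXB13, 64.8% lay in knockdown peaks and 62.4% in wild-type peaks. Knockdown peaks of 4 kb (score 2.66) and 3.2 kb (score 12.2) there touched no wild-type peak. The excess of knockdown coverage over the whole HOXB span was 1.6 kb, and it turned round under other settings. In the upper 50% of each list by score, 75.7% of the span lay in knockdown peaks and 76.2% in wild-type peaks. Lists with an equal number of peaks were made by cutting the knockdown list alone by score, so its coverage could only fall. The span was then covered to 80.3% in the knockdown list and 81.5% in the wild-type list.

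**Figure D2:**
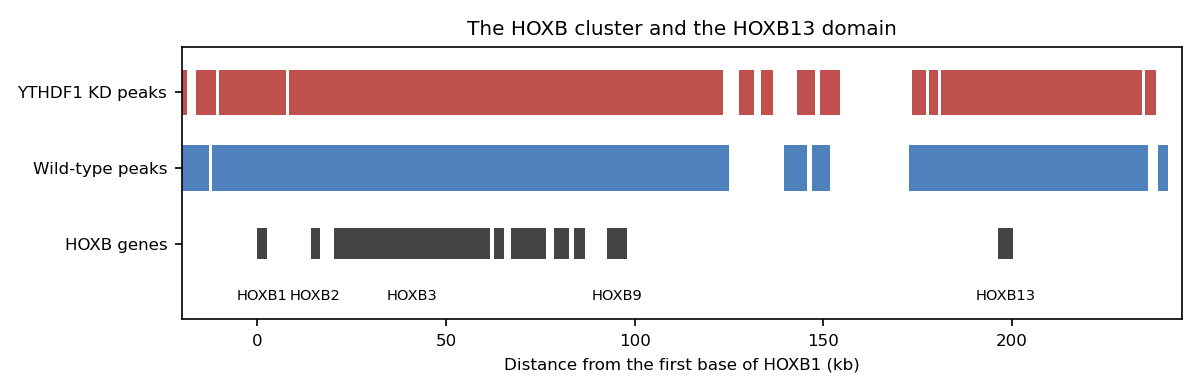
Peaks over HOXB, with knockdown peaks in red above wild-type peaks in blue and HOXB genes in grey below, by distance in kb from the first base of HOXB1. The knockdown row has a narrow gap between HOXB1 and HOXB2 and a shorter HOXB13 block, of 53.2 kb against 63.2 kb.

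The HOX domains were among the widest peaks of both lists, and their share of the widest peaks was larger in the knockdown list. Of the peaks of 100 kb or wider, 4 of 5 in the knockdown list and 4 of 14 in the wild-type list were HOX domains. By width, HOXA, HOXC, HOXD and HOXB ranked 1, 3, 4 and 5 in the knockdown list and 2, 4, 8 and 6 in the wild-type list. In peaks of this width lay 38 members in the knockdown list, against 0.217% of all protein-coding genes, and 39 members in the wild-type list, against 0.464%. HOXB13 lay in a narrower peak in both lists and HOXB1 in the knockdown list.

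Breaks within wide domains were counted for every wild-type peak of 50 kb or wider. A single knockdown peak touched 3 of the 5 HOX peaks (HOXA, HOXC and HOXD), 11 of the other 81, and 16.3% of all 86. The HOXB peak met 3 knockdown peaks and the HOXB13 peak 4, the most of the 5. The other peaks met a median of 3 knockdown peaks and up to 13, so HOXB and HOXB13 did not stand apart from them in this count. Among the 10 other wild-type peaks of 100 kb or wider, 0 met a single knockdown peak and the median was 6. The widest knockdown peak had a median of 0.992 times the wild-type width over the 5 HOX domains and 0.623 times over the other 81. A kept width was not particular to HOX. Among the 11 others touched by a single knockdown peak, a wild-type peak of 75.6 kb on chromosome 3 met a knockdown peak of 75.4 kb. Another, on chromosome 6, measured 52.8 kb in both lists. Knockdown peaks covered between 94.9% and 99.8% of each HOX domain, with a median of 98.6%. For the other 81 the median was 94.2% and the range 58.9% to 100%.

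**Figure D3:**
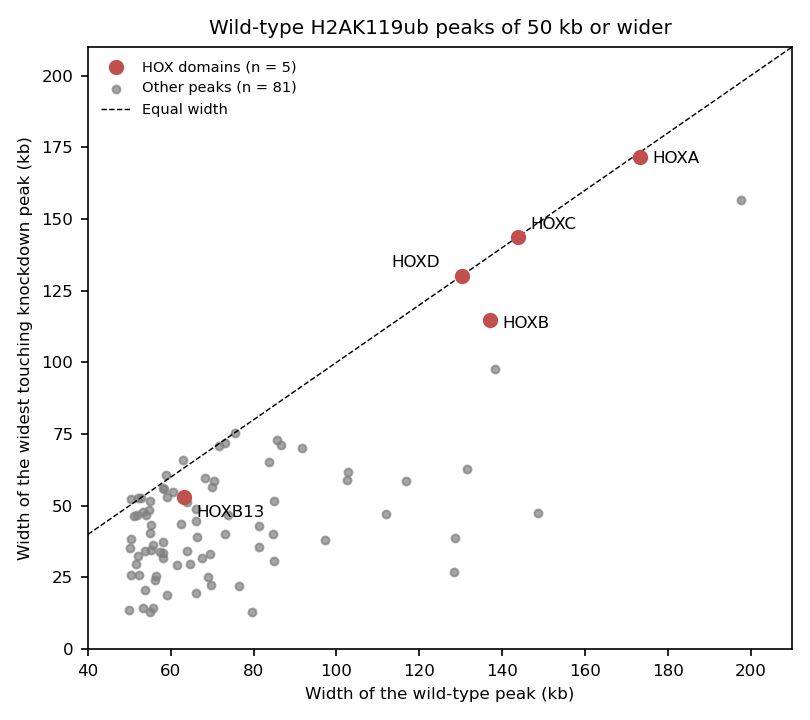
Width of the widest touching knockdown peak against the width of the wild-type peak, in kb, for wild-type peaks of 50 kb or wider; red points are the 5 HOX domains, grey points the other 81 peaks and the dashed line marks equal width. HOXA, HOXC and HOXD lie on the line, HOXB and HOXB13 lie below it, and most other wide peaks lie farther below.

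Border positions were then compared with the same wide peaks. Measured to the knockdown peak with the longest overlap, 8 of 10 HOX borders lay within 2 kb of the wild-type border, against 27.8% of the 162 other borders. The median displacement was 1.7 kb for HOX and 9.7 kb for the others. Over all 16990 pairs of peaks that touched each other alone, most of them much narrower, 82.3% of borders lay within 2 kb and the median was 0.8 kb, so the HOX share was near that of peaks in general. The HOX exceptions were the left border of HOXB, 20.4 kb farther in because of the gap beside HOXB1, and that of HOXB13. Measured instead to the outermost knockdown peaks that touched the wild-type peak, a measure added once the values were known, the medians were 1.7 kb for HOX and 1.5 kb for the others. On that measure 8 of 10 HOX borders and 63.6% of the others lay within 2 kb. On that measure the HOX and other medians lay close together. Peaks chosen for their width in 1 list can be narrower in another, and how far this bears on the borders was not tested. Of the 162 other borders, 128 lay farther in in the knockdown list and 27 farther out on the first measure. For wide peaks chosen in the knockdown list, the median was 3 kb over 68 other borders, with 39.7% within 2 kb. Of these 68, 43 lay farther in in the knockdown list and 22 farther out.

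**Figure D4:**
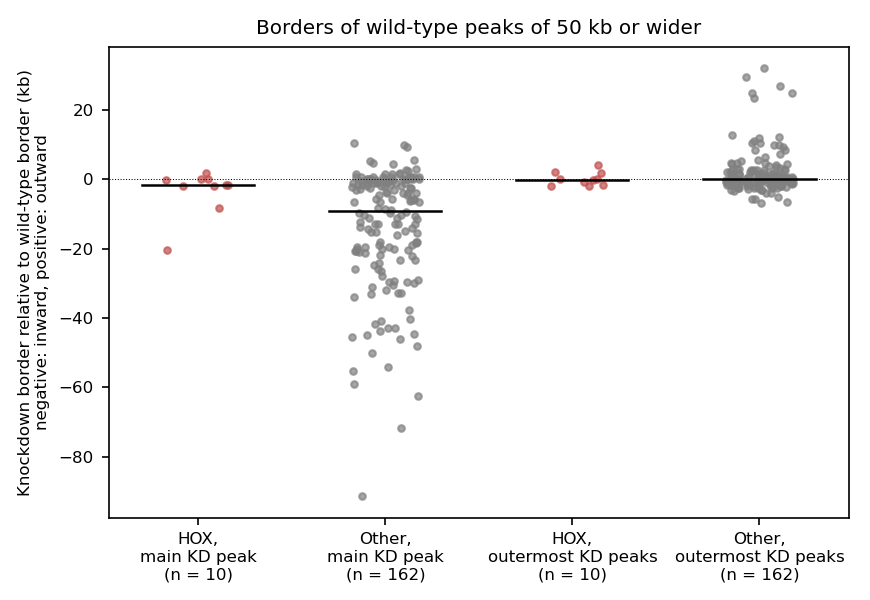
Position in kb of each knockdown border relative to the wild-type border, with negative values inward, for HOX domains (red, 10 borders) and other wild-type peaks of 50 kb or wider (grey, 162 borders); black bars are medians. All HOX borders except the left ones of HOXB and HOXB13 lie close to 0 on the first measure, while the other borders spread far inward only when measured to the main knockdown peak.

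Gene by gene, 36 members had equal covered length, the bases in peaks in the 10 kb on either side of each gene end, in both lists. HOXB1 had 21.686 kb in the knockdown list and 22.486 kb in the wild-type list, and HOXB2 had 21.655 kb in the knockdown list and 22.455 kb in the wild-type list, both 0.8 kb less because of the same gap. EVX1 had 24.799 kb in the knockdown list and 25.029 kb in the wild-type list. HOXC4 had 40.002 kb in the knockdown list and 39.002 kb in the wild-type list. The 1 kb gap to the right of the HOXC domain lay inside its window in the wild-type list. In the knockdown list that gap lay just past the window. HOXC4 was the sole member to differ by 1 kb or more. Of protein-coding genes 60.6% did, 40.5% with shorter and 20.1% with longer coverage in the knockdown list. Peaks filled the window to its ends for 38 members in the wild-type list, and 35 of these were filled in the knockdown list too. Filled windows can only stay or shrink, so they were set beside other filled windows. Of the 290 protein-coding genes with a window filled in the wild-type list, HOX genes included, 44.5% had it filled in the knockdown list. The members shared 5 wild-type peaks, so their counts here are not separate observations.

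The RNA genes that lie among the members were covered in the same way. All 25 small and non-coding genes listed for the clusters lay wholly inside peaks in both lists. They were listed for their place in the clusters, so this count follows from the extent of the domains. It is no separate result about these genes, and no share over all genes of these kinds was computed. The listed genes include HOTAIR in HOXC, whose RNA has been linked to PRC2, and HOTTIP beyond HOXA13, whose RNA has been linked to activation of distal HOXA genes. HOTAIRM1 beside HOXA2 and HAGLR, which reaches from HOXD3 to HOXD1, are also among them. MIR196B in HOXA, MIR196A1 in HOXB and MIR196A2 in HOXC encode microRNAs that target HOX messenger RNAs. MIR10A beside HOXB4 belongs to another such family. Their RefSeq mature sequences are shown because copies of 1 seed lie in 3 of the domains; capitals mark the seed, bases 2 to 8.
hsa-miR-196b-5p: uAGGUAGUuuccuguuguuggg
hsa-miR-196a-5p: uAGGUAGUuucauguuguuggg
hsa-miR-10a-5p: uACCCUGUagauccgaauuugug

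The miR-196 sequences share the seed AGGUAGU and differ by A12C, counted from the 5' end with the base of miR-196a first. MIR196A1 in HOXB and MIR196A2 in HOXC give the same 5p sequence, shown above as miR-196a-5p, and different 3p sequences. The seed of miR-10a-5p is another, ACCCUGU.

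The flanks set the clusters apart from each other. HOXA and HOXD were islands. Outside the HOXA domain its flanks held 2 kb in 1 knockdown peak and 0 kb in wild-type peaks. The nearest wild-type peaks lay 218.8 kb to the left and 208 kb to the right of the HOXA domain. The nearest knockdown peak on the left, 2 kb wide (score 9.96), lay 3.8 kb from the domain and touched no wild-type peak, and the nearest on the right lay 258.4 kb away. Outside the HOXD domain the flanks held 9.6 kb in knockdown peaks and 5.6 kb in wild-type peaks. Most of these lay at the starts of the neighbours LNPK, 74.652 kb to the left, which encodes a protein of the endoplasmic reticulum, and MTX2, 78.535 kb to the right, which encodes a mitochondrial import protein. Each start lay inside a peak in both lists. A knockdown peak of 2.6 kb between LNPK and EVX2 touched no wild-type peak.

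HOXB and HOXC were not islands. Outside the HOXC domain its flanks held 173.97 kb in knockdown peaks and 181.17 kb in wild-type peaks. Of it, 131.4 kb in the knockdown list and 137.6 kb in the wild-type list lay on the right, past HOXC4. SMUG1, a DNA repair gene, lies there, and its span was covered to 83.1% in the knockdown list and 81.2% in the wild-type list. The next peak began 1 kb beyond the HOXC domain in both lists. It was 19.2 kb wide in the knockdown list and 29.6 kb in the wild-type list. The right flank of HOXC was the most covered of the 8, at 71.0% in the knockdown list and 73.2% in the wild-type list. CBX5, which encodes the heterochromatin protein HP1 alpha, lies 174.912 kb from HOXC4 and had 3.059 kb in peaks near its ends in the knockdown list and 5.259 kb in the wild-type list. CALCOCO1, 211.379 kb to the left, had 15.936 kb in the knockdown list and 23.136 kb in the wild-type list.

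In the HOXB flanks the lists differed more, over the full 200 kb on the right side only. On the left, towards SKAP1, 34.2% of the flank lay in knockdown peaks and 34.4% in wild-type peaks. Within 100 kb both sides differed, the left by 7.6 kb and the right by -6.8 kb, knockdown minus wild type. SKAP1, a T-cell adaptor gene, had 10.4% of its span in knockdown peaks and 13.9% in wild-type peaks. Near its ends the order was the other way round, with a covered length of 7.461 kb in the knockdown list and 5.42 kb in the wild-type list. On the right it was 30.8% in the knockdown list and 40.8% in the wild-type list. Wild-type peaks of 3.8 kb (score 4.79) beside ATP5MC1 and 4.6 kb (score 9.05) at it touched no knockdown peak. TTLL6, a tubulin-modifying enzyme gene whose 3' end lies inside the HOXB13 domain in both lists, had 28.7% of its span in knockdown peaks and 40.4% in wild-type peaks. ATP5MC1, which encodes a subunit of ATP synthase, had 0% of its span in knockdown peaks and 97.7% in wild-type peaks. That wild-type coverage came from the low-scoring 4.6 kb peak alone. The starts of CALCOCO2 and UBE2Z lay in a peak in both lists.

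Over all 8 flanks 383 kb lay in knockdown peaks and 406 kb in wild-type peaks, a difference of -5.76%. The HOXB flanks gave -20.4 kb of it, the HOXC flanks -7.4 kb, the HOXA flanks 0.6 kb and the HOXD flanks 3.8 kb. Within 500 kb the difference was -82.8 kb. Within 100 kb it was -0.6 kb, the net of single flanks that differed in both directions. There the right flanks of HOXB and HOXC gave -6.8 and -6.6 kb, and the left flanks of HOXB and HOXD gave 7.6 and 4.2 kb. Peaks without a member numbered 50 in the knockdown windows, with a median width of 3.5 kb, and 34 in the wild-type windows, with 5.5 kb. Of these, 39 knockdown and 28 wild-type peaks touched a peak of the other list. Over the genome, 74.1% of knockdown peaks touched a wild-type peak and 71.4% of wild-type peaks touched a knockdown peak, shares near those in the windows.

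**Figure D5:**
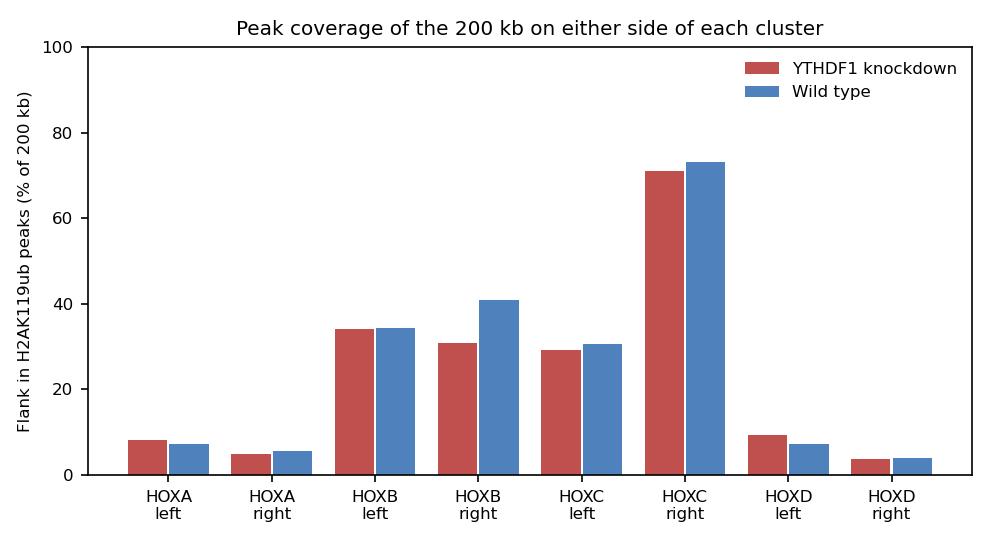
Percent of each 200 kb flank that lay in peaks, for knockdown (red, left bar) and wild type (blue, right bar), with left and right in the order of chromosome coordinates. The right flank of HOXC is the most covered, the HOXA and HOXD flanks hold under 10%, and the right flank of HOXB differs most between the lists (30.8% against 40.8%).

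Other genes of the HOX system lay in narrower peaks, or only partly in peaks. All 11 cofactor and CDX genes described here and all 40 members had a peak within 2 kb of an end in both lists. Of all protein-coding genes, 69.4% did in each list and 64.6% in both. The PBX, MEIS and PKNOX genes encode homeodomain partners that bind DNA with HOX proteins. MEIS1 had a covered length of 33.47 kb in the knockdown list and 33.07 kb in the wild-type list, and MEIS2 had 31.198 kb in the knockdown list and 38.802 kb in the wild-type list. PBX4 had 14.375 kb in the knockdown list and 21.975 kb in the wild-type list, and PKNOX2 had 25.839 kb in the knockdown list and 21.74 kb in the wild-type list. CDX genes encode activators of HOX genes. CDX2 lay wholly inside a peak of 36.4 kb in the knockdown list and 34.8 kb in the wild-type list, while CDX4 had 4.2 kb covered in the knockdown list and 4.6 kb in the wild-type list. By 1 kb or more, 4 of the 11 had a shorter and 1 a longer covered length in the knockdown list, near or below the 40.5% and 20.1% of all protein-coding genes. Their median difference was -0.4 kb. The median over all protein-coding genes and over the members was 0 kb.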

How the data were processed

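H2AK119ub was profiled in 1 library per group, and 1 peak list of each was analysed. The input libraries were not used here. Per the submitters' processing notes the build was hg38 and the tools were SICER 1.1, MACS2 2.1.0, Picard, Bowtie2 2.2.5, Trimmomatic 0.35 and SAMtools 1.3.1, with no roles stated. The peak caller and any use of the input are not stated in those notes. The deposited values are peak positions on a grid of 200 bp and a score per peak made by the authors, whose unit is not stated. It was used only within its own list.

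Only chromosomes 1 to 22 and X were kept. Gene spans, promoters and microRNAs came from RefSeq tables of GRCh38.p14. Strand was known only where a promoter was listed. Interval arithmetic was done in Python 3.11.15 with pandas 2.3.3 and was checked on simulated intervals. A domain runs from the first to the last peak that touches a member. A gap is a stretch of the member span with no peak. Marked genes have a peak no farther than 2 kb from an end, and covered length counts bases in peaks up to 10 kb on either side of each end. Calls of a difference used 1 kb.

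Deposited peak ends were read as the last base of a peak. The members, the lists and the settings were chosen with earlier results of these data known. Named genes were the end members of each cluster, members that differed or lay beside a gap or border, listed RNA genes, the nearest neighbours and the cofactor list. A further HOX gene and a gene of the cofactor list are not reported here. With 1 library per group no test was run.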

Additional observations from a re-analysis of the deposited data

How the results depend on the processing

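Of 65 values recomputed under other settings, 48 stayed close to those reported, meaning within 1 percentage point for cluster spans, 1.5 times for counts and 10% for lengths, and 17 moved. All 40 members stayed inside peaks in both lists in the upper 50% by score and without peaks under 2 kb. The spans of HOXA, HOXC and HOXD stayed covered. The cuts by score and width could not change these values. Every peak with a member had the ceiling score of 1000, and the narrowest was 17.8 kb wide. These values are counted among the 48, so that number is no measure of how robust the domains are. In the upper 50% by score, the HOXB span was covered to 75.7% in the knockdown list and 76.2% in the wild-type list, with 4 gaps in the knockdown list and 1 in the wild-type list. The flanks then held 314 kb in the knockdown list and 343 kb in the wild-type list, a difference of -29.2 kb. Lists with an equal number of peaks were made by cutting the knockdown list alone, which can only lower its coverage. The knockdown HOXB span was then covered to 80.3% and the flank difference was -32.6 kb. It was -28.2 kb without peaks under 2 kb. Flanks of 100 kb held 273.3 kb in the knockdown list and 273.9 kb in the wild-type list (-0.6 kb), and flanks of 500 kb held 739 kb in the knockdown list and 822 kb in the wild-type list (-82.8 kb). When peaks up to 2 kb apart were joined, the knockdown list had 3 gaps in HOXB and the wild-type list 2, and the gap between HOXB1 and HOXB2 was closed by construction. With that joining, 7 of 10 HOX borders lay within 2 kb, against 8 as reported, and the median displacement stayed at 1.7 kb. No paired analysis was possible because each group has 1 library. Depth is unknown, and how it bears on gaps and on peaks found in 1 list alone was not tested.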
